A study of Mus musculus with 8 samples.

Results

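Olfactory receptor genes were examined as a family best known from the olfactory epithelium, in order to describe the signal that ATAC-Seq of FFPE nuclei gives at silent promoters. The members were all protein-coding genes on chromosome 9 in GENCODE vM21 (mm10) whose symbol begins with Olfr. This rule uses a name and a position and no signal, and it gave 132 of the 1210 protein-coding genes on the chromosome, out of 21938 on the main chromosomes. FFPE stands for formalin-fixed and paraffin-embedded, and ATAC-Seq marks open chromatin by the places where the transposase Tn5 inserts its adapters. The nuclei came from spleens of 8-week-old C57BL/6J mice of both sexes, and the tagmented DNA was recovered either after reverse crosslinking (+RV), a step that releases DNA from formaldehyde-bound protein, or with that step left out (−RV). Of 8 samples, 4 were bulk libraries (2 +RV and 2 −RV) and 4 were single-cell libraries (2 +RV and 2 −RV), whose fragments were deposited as 1 pooled set per condition. All groups were wild-type C57BL/6J, with the same fixation and no other agent. The 2 bulk libraries of a condition are described as technical replicates, so p-values over libraries measure technical spread and not that between animals.

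Olfactory receptors are G protein-coupled receptors that bind odorants on the cilia of olfactory sensory neurons. Their genes lie in large clusters, and each mature neuron expresses a single allele of a single receptor gene while the others are packed in heterochromatin. In mouse olfactory neurons, Lhx2, Ebf factors and the adaptor Ldb1 act at the enhancers of these clusters, and the receptor promoters are known to be rich in A and T and to hold homeodomain and O/E (Ebf) sites. In most other tissues, lymphoid organs included, the clusters are regarded as closed.

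The sequences just upstream of 2 members and 2 contrasting genes show how such promoters differ in composition. Olfr902 and Olfr986 were the members with the highest and second highest +RV single-cell density that RefSeq's promoter table held. Zfp317, a zinc finger gene, lies inside an olfactory receptor cluster, and Rhoa, a small GTPase used by nearly all cells, was the broadly active chr9 gene with the highest density among those with a peak in all 4 bulk libraries and an entry in that table. Each line gives the 250 bases before the RefSeq transcription start site (TSS) on the gene's strand (GRCm38.p6, the assembly of mm10), and capitals mark CG dinucleotides.
Olfr902: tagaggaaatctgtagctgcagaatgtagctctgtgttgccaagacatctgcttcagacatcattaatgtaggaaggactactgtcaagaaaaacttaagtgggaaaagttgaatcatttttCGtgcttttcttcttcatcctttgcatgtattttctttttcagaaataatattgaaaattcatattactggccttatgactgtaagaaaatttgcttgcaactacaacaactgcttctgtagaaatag
Olfr986: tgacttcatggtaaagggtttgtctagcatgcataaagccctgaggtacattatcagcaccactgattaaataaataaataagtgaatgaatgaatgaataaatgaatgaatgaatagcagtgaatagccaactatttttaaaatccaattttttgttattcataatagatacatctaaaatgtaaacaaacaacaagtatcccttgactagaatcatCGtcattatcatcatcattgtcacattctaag
Zfp317: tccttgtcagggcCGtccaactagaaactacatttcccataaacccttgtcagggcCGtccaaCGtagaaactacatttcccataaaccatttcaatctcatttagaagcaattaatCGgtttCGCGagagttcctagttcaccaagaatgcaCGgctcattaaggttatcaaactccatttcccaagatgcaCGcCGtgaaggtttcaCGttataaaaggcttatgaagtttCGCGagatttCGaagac
Rhoa: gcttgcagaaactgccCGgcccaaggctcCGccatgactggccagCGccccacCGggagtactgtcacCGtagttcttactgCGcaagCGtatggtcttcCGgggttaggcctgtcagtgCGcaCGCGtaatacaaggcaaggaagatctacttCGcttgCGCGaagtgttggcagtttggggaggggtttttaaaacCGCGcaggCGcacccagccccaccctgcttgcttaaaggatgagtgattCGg
These stretches lie on chromosome 9, plus strand, at 38448542 to 38448791 (Olfr902), 40186829 to 40187078 (Olfr986), 19621841 to 19622090 (Zfp317) and 108305910 to 108306159 (Rhoa). The Olfr902 and Olfr986 stretches held 1 CG dinucleotide each, against 13 in that of Zfp317 and 18 in that of Rhoa. Their GC contents were 34.4% and 30%, against 43.2% for Zfp317 and 58.8% for Rhoa.

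The first comparison asked whether any member had a bulk promoter peak. None did. A promoter window took in 1000 bp before and 200 bp after each annotated TSS, joined over the transcripts of a gene, and a peak counted when it overlapped the window by at least 1 bp. In +RV libraries a peak was called at 0 of 132 and 0 of 132 members, against 648 and 658 of 1078 other chr9 genes. In −RV libraries it was called at 0 of 132 and 0 of 132 members, against 579 and 582 of the other genes. For independent draws, a count of 0 among 132 would allow a share of up to 2.27% (3 counts). The members are the whole set under the rule and share their libraries, so this limit is only a guide.

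The share with a promoter peak differed by −57.2 ± 3.903 percentage points, members minus other chr9 genes (SD, n = 4 libraries), and was lower in members in 4 of 4 libraries. The exact two-sided sign-flip test over libraries gave p = 0.13, the smallest value that 4 libraries allow. Over all protein-coding genes, a promoter peak in both libraries of a condition was called at 55.2% of genes in +RV and 49.2% in −RV, and over the other chr9 genes at 58.7% and 51.7%. The members thus stood at 0% beside that background in both conditions. Between conditions, the share of members differed by 0 percentage points, and the exact permutation test could not go below p = 0.33 with 2 libraries against 2. The other chr9 genes were called at 60.6% ± 0.656 in +RV and 53.8% ± 0.197 in −RV (SD, n = 2), which reached that smallest value.

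**Figure D1:**
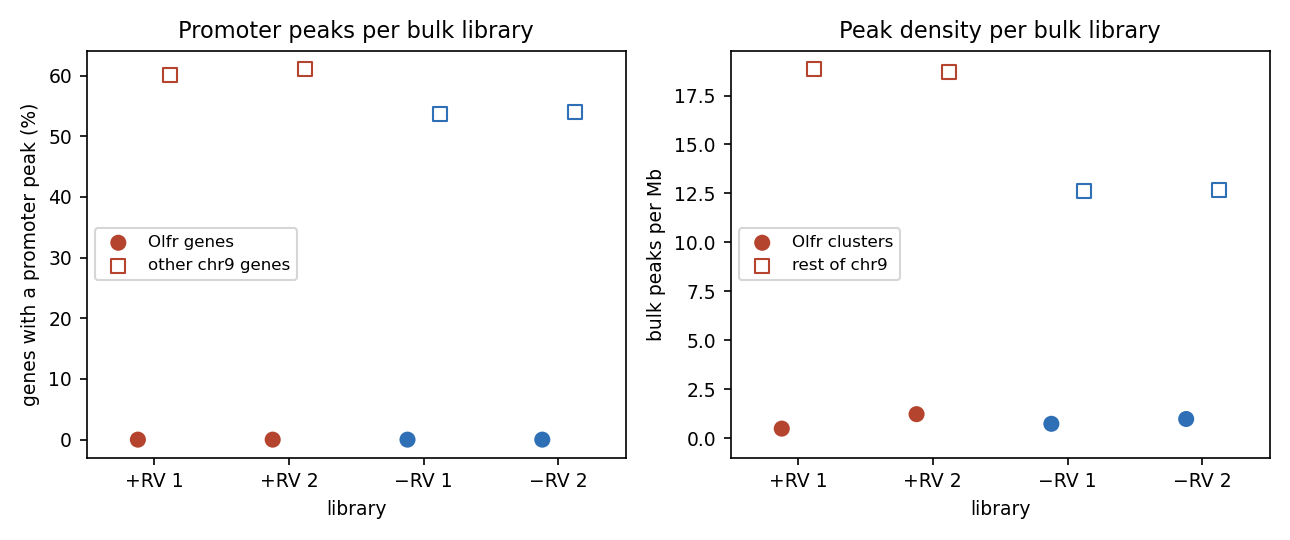
Percentage of genes with a promoter peak (left) and bulk peaks per Mb (right) in each bulk library, with filled circles for chr9 Olfr genes or their clusters, open squares for the other chr9 genes or the rest of chr9, red for +RV and blue for −RV. All 4 circles on the left sit at 0%, while the squares lie between 53.7% and 61.04%; on the right the circles lie between 0.492 and 1.23 peaks per Mb and the squares between 12.6 and 18.9.

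A missing peak is not by itself a measure of closed chromatin. Regions on a blacklist had been taken out of the lists, and the part of this step in missing peaks was not tested. Of the 398 other chr9 genes with no peak in any library, 43 (10.8%) had a single-cell promoter density above the median of the genes called in all 4 libraries, which was 3.87 fragments per kb of window per 1000000 nuclear fragments. Of these, 34 had at least 90% of their windows in 50-base words that occur once in the genome. No member lay above that value (0 of 132). Which regions were removed is not stated in these sources, so the fragments of the single-cell sets, which came without peak calling, were used to measure the members directly.

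The chr9 members formed 2 clusters, taken as runs of members less than 1 Mb apart. Cluster 1 (chromosome 9, 18751507 to 20336094, from Olfr24 to Olfr18) held 37 members over 1.58 Mb. Cluster 2 (37708964 to 40190134, from Olfr160 to Olfr986) held 95 members over 2.48 Mb. The +RV libraries had 2 and 5 peaks inside the clusters, and the −RV libraries 3 and 4. This gave 0.861 ± 0.522 peaks per Mb in +RV and 0.861 ± 0.174 in −RV (SD, n = 2; exact permutation test, p = 1). The rest of chr9 held 18.8 ± 0.123 peaks per Mb in +RV and 12.7 ± 0.0411 in −RV. With 2 to 5 peaks per library in the clusters, whether their change differed from that of the rest of chr9 was not tested. Within a library, the rest of chr9 had 12.9 to 38.4 times the peak density of the clusters, lower in the clusters in 4 of 4 libraries (exact sign-flip test, p = 0.13).

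The peak region inside the clusters that was called in all 4 libraries belonged to a gene that is no olfactory receptor. It lay at the 5′ end of Vwa5a, between the members Olfr919 and Olfr920. In +RV replicate 1 it ran from 38717912 to 38719274 with a deposited fold of 5.11 over the local background, and in −RV replicate 1 from 38718052 to 38718941 with a fold of 4.67. Its summits were 14573 to 15471 bp away from the nearest member TSS. A further peak, 10 and 32 bp from another Vwa5a TSS, was called in both +RV libraries and in neither −RV library. Without peaks at promoters of genes outside the family, the clusters kept 0 and 2 peaks in +RV and 2 and 3 in −RV. In +RV, 1 kept peak still lay inside Vwa5a, 525 bp from a Vwa5a TSS. The other was 8384 bp from the TSS of Olfr930. Among all kept peaks, 1 region was seen in both −RV libraries and in no +RV library. It lay inside the body of Olfr943 (39181238 to 39181476 in replicate 1), 15032 bp from its TSS, with a −log10 q of 5.001 and 4.82. It was singled out after its values were seen. The member window nearest to any bulk peak was that of Olfr986 at the edge of cluster 2, at 4461 bp, and over the members the median distance was 189732 bp.

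Single-cell fragments were then counted by their midpoint in the same windows. The +RV set held 13703580 nuclear fragments from 18620 barcodes and the −RV set 1592372 from 2406 barcodes, and 2 barcodes occurred in both. Densities below are fragments per kb of window per 1000000 nuclear fragments, with 95% exact Poisson intervals that cover counting error only. With 1 pooled set per condition there was no test between conditions.

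Member promoters carried 663 fragments in +RV, a density of 0.180 (0.167 to 0.194), and 104 in −RV, a density of 0.243 (0.199 to 0.295). The promoters of other chr9 genes had 2.78 (2.76 to 2.79) in +RV and 2.52 (2.48 to 2.56) in −RV. The density of members was therefore 0.0648 times (0.0600 to 0.0699) that of other chr9 promoters in +RV and 0.0965 times (0.0788 to 0.117) in −RV, or 15.4-fold and 10.4-fold lower. Barcodes had been kept on their share of reads from 1000 bp before to 200 bp after TSSs, the same span as these windows. Such a selection favours signal at promoters in general. Its part in this contrast and in later ones with other promoters was not tested. Medians over genes gave 0.182 for members and 1.88 for other genes in +RV, and 0.260 for members and 1.78 for other genes in −RV. The 398 other chr9 genes with no bulk peak were much nearer to the members by median, at 0.352 in +RV and 0.327 in −RV. Their summed density was 1.67 in +RV and 1.57 in −RV. The highest single value among the other genes was 193.5, in a group whose windows held down to 0% unique words. With members and other genes held to at least 90% unique 50-base words, the contrast was 13.9-fold in +RV and 9.31-fold in −RV. The contrast depended on the window, at 31.3-fold in +RV and 17.5-fold in −RV for 250 bp before to 50 bp after the TSS, and at 8.43-fold and 5.85-fold for 2000 bp on each side.

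Per kb of window and without allowance for uniqueness, member promoters lay close to the level of their surroundings, within counting error in +RV and somewhat above it in −RV. The rest of the clusters, outside promoter windows and coding exons, had 0.176 (0.172 to 0.180) in +RV and 0.195 (0.184 to 0.206) in −RV, so that member promoters were at 1.02 times (0.945 to 1.11) this level in +RV and 1.25 times (1.01 to 1.53) in −RV. By summed density they lay below chr9 intergenic tiles, which are 1200-bp stretches at least 5000 bp from any protein-coding gene. The tiles had 0.257 in +RV and 0.262 in −RV, which put members at 0.701 times (0.649 to 0.757) the tile density in +RV and at 0.927 times (0.757 to 1.123) in −RV. Against chr9 as a whole the members stood at 0.445 times in +RV and 0.602 times in −RV. By summed density, members were therefore below the tiles in +RV beyond counting error, while in −RV the interval held 1. By median, members and tiles were level in +RV, at 0.182 each, and in −RV the median tile was at 0 against 0.260 for members. In member windows a mean of 96.3% of 50-base words were unique, against 83.4% in the rest of the clusters and 88.1% in the tiles. Densities were not scaled for this, and its part in these comparisons was not tested.

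The 1003 Olfr genes on other chromosomes gave nearly the same densities, 0.206 (0.201 to 0.211) in +RV and 0.256 (0.240 to 0.273) in −RV. Members were at 0.875 times (0.807 to 0.948) this level in +RV and at 0.949 times (0.768 to 1.16) in −RV. Of these genes, 14 had a promoter peak in some bulk library, with 6 and 11 in +RV libraries and 5 and 5 in −RV libraries. The 4 called in all libraries were Olfr433, Olfr111, Olfr549 and Olfr658, picked here for their calls, and Olfr433 had a density of 3.75 in +RV and 1.95 in −RV.

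**Figure D2:**
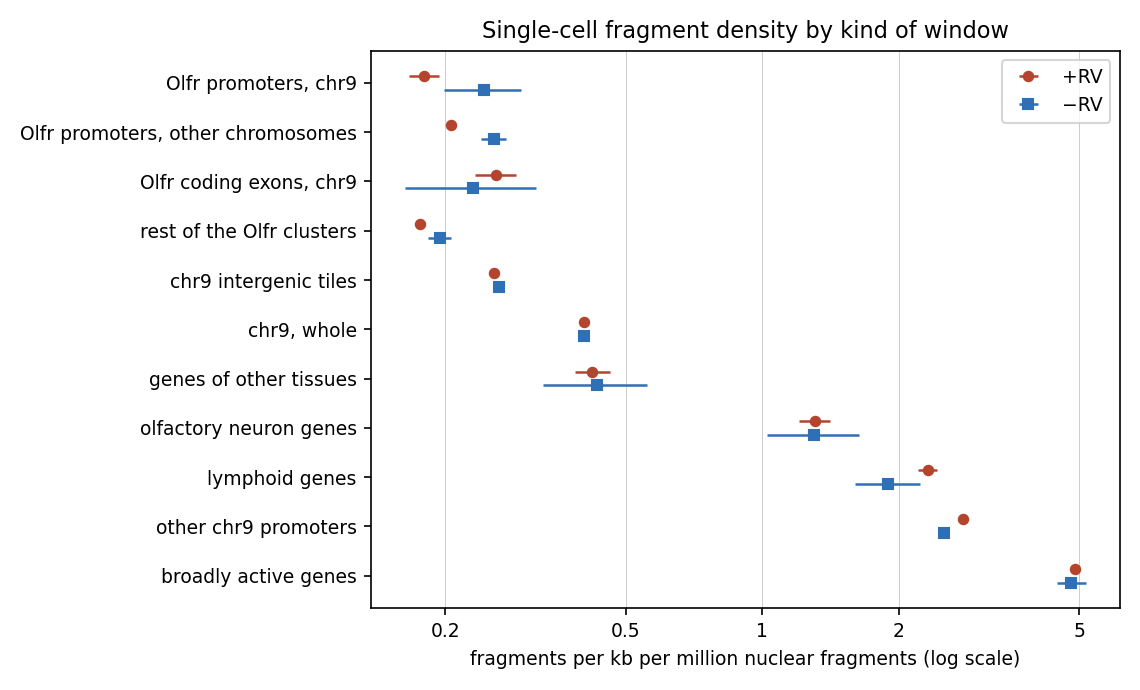
Single-cell fragment density (fragments per kb per 1000000 nuclear fragments, log scale) summed over kinds of window, red circles for +RV and blue squares for −RV, with 95% exact Poisson intervals. Olfr promoters on chr9 (0.180 in +RV, 0.243 in −RV) lie with the rest of their clusters and below chr9 as a whole (0.405 and 0.404), and promoters of broadly active genes (4.90 and 4.81) lie at the far right.

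Other chr9 genes placed the members on a scale. As background, 556 of all 1078 other chr9 genes had a bulk promoter peak in all 4 libraries. The 23 broadly active chr9 genes had a summed density of 4.90 in +RV and 4.81 in −RV, and 21 of 23 had a bulk promoter peak in all 4 libraries. The highest of them in +RV were Hspa8, a heat shock cognate chaperone, at 13.4, and Rhoa at 12.7. The 17 lymphoid chr9 genes had 2.32 in +RV and 1.90 in −RV, with 8 of 17 called in all 4 libraries. Neither this share nor these densities exceeded those of all other chr9 genes, at 2.78 in +RV and 2.52 in −RV. Among the lymphoid genes, Ets1, a lymphoid transcription factor, had 6.69 in +RV, and Pou2af1, a B cell coactivator, 4.41. The 33 chr9 genes known from other tissues had 0.423 in +RV and 0.432 in −RV, with 1 of 33 called in all 4 libraries, Trf, the transferrin gene, which held 113 of the list's 497 fragments in +RV. Gria4, Grik4 and Cyp11a1 had a peak in 1 library each. The median gene of the list had 0.304 in +RV and 0.348 in −RV. The members' summed density was below that of this list, at 0.426 times (0.379 to 0.480) its density in +RV and at 0.563 times (0.405 to 0.789) in −RV. In this list Mmp27, a matrix metalloproteinase gene, was highest at 2.302 in +RV.

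The labelled tissue was checked with marker genes. All 9 B cell genes and 6 of 8 T cell genes had a promoter peak in all 4 libraries, beside 556 of 1078 other chr9 genes. Of 12 olfactory sensory neuron genes, 2 did, Ldb1 and Adcy3, which are not restricted to these neurons. Lhx2 had a peak in 2 libraries, with a density of 1.43 in +RV and 2.31 in −RV. Stoml3 had a peak in 1 library, and the other 8 genes had none. Omp, the olfactory marker protein, had a peak in no library, with 15 fragments in +RV (density 0.911) and 1 in −RV (0.523). Cnga2, a channel subunit of odour transduction, had 2 fragments in +RV and 1 in −RV and no peak. The 12 genes together had 1.31 in +RV and 1.304 in −RV, of which Ldb1 contributed most, at 4.68 and 4.13.

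Each member gave few fragments, so single promoters could be described but hardly ranked. In +RV, counts per member ran from 1 to 13, and no member was at 0. In −RV they ran from 0 to 4, and 61 of 132 members were at 0, which for a window of a single TSS allows a density of up to 1.57 (3 counts). Over members the density in +RV ran from 0.0304 to 0.435, with quartiles of 0.122 and 0.240. Of 1078 other chr9 genes, 249 (23.1%) had a density below that of the highest member. Of 132 members, 120 lay at or below the lower quartile of all chr9 genes in +RV and 90 in −RV.

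The 10 highest members in +RV were Olfr143, Olfr902, Olfr986, Olfr251, Olfr145, Olfr26, Olfr839-ps1, Olfr981, Olfr148 and Olfr959. Olfr143 (38252774 to 38256549) had 11 fragments in +RV, 0.435 (0.217 to 0.778), and 4 in −RV, 1.36 (0.371 to 3.48). Olfr902 (38447652 to 38450576) had 13 fragments in +RV, 0.405 (0.216 to 0.693), and 2 in −RV, 0.537 (0.0650 to 1.94). Olfr986 (40180920 to 40190134) had 13 fragments in +RV, 0.395 (0.210 to 0.675), and 1 in −RV, 0.261 (0.00662 to 1.46). All 3 intervals in +RV excluded the members' summed value of 0.180, although these members were picked as the extremes of 132. Of the other 7, Olfr251, Olfr145, Olfr981, Olfr148 and Olfr959 had no fragment in −RV, Olfr26 had 1 and Olfr839-ps1 had 2. Olfr839-ps1 carries a pseudogene suffix in its symbol but is annotated as protein-coding. The highest member in −RV, singled out after its values were seen, was Olfr938, with 3 fragments in +RV, 0.182 (0.0376 to 0.533), and 4 in −RV, 2.09 (0.570 to 5.36). At the low end, 6 members shared the lowest count of 1 fragment in +RV.

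The spread between members was little more than that of counting. The variance of the counts was 1.154 times that expected from window lengths and counting alone in +RV and 1.124 times in −RV. Across the 132 members, density in +RV and density in −RV had a Spearman correlation of −0.02 and a Pearson correlation of 0.07, over counts as low as these. In +RV the Spearman correlation of density was 0.05 with GC content, 0.08 with the CpG ratio and 0.03 with the share of unique 50-base words. In −RV these values were −0.24, 0.08 and 0.09. Members share their library and their depth, so these are descriptions only. The 2 clusters did not differ beyond counting error. Members of cluster 1 had 0.170 (0.145 to 0.198) in +RV and 0.247 (0.164 to 0.357) in −RV, and members of cluster 2 had 0.184 (0.168 to 0.201) in +RV and 0.242 (0.190 to 0.303) in −RV.

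**Figure D3:**
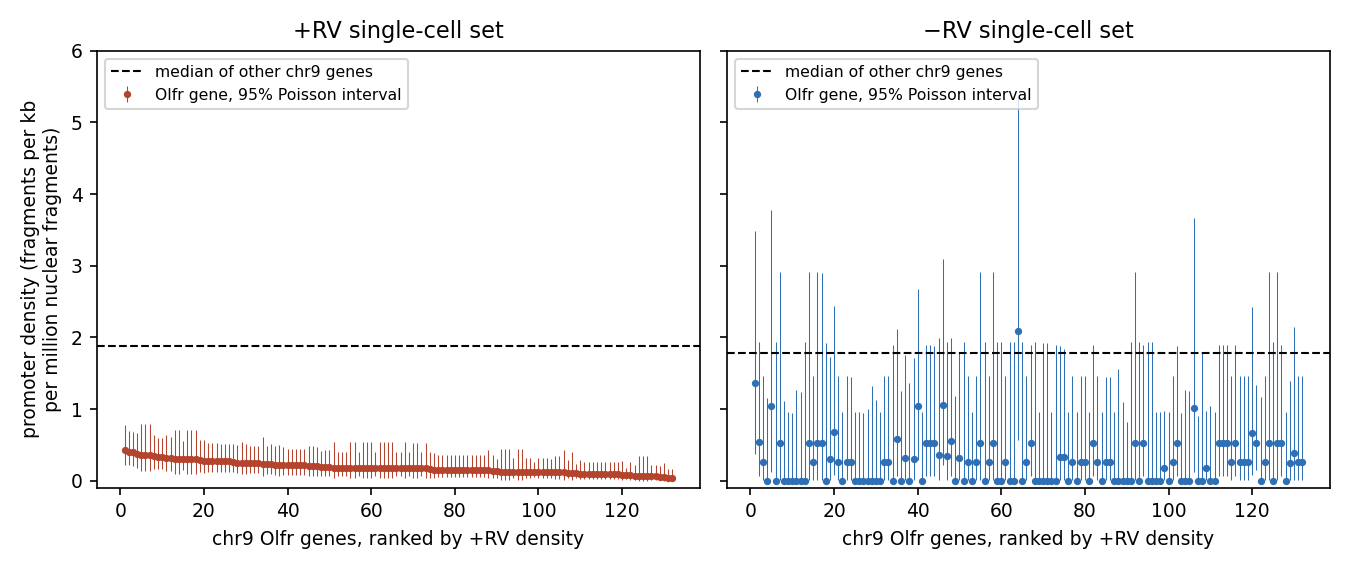
Promoter density of each chr9 Olfr gene (fragments per kb per 1000000 nuclear fragments) in the +RV set (left) and the −RV set (right), ranked in both panels by the +RV density, with 95% exact Poisson intervals. In +RV all 132 points lie between 0.0304 and 0.435, below the dashed median of other chr9 genes at 1.88, and in −RV 1 point (Olfr938, 2.09, from 4 fragments) lies above the dashed median of 1.78.

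Receptor genes resemble each other, so the part of each window that can be told from the rest of the genome was measured. In member windows a median of 98.8% of 50-base words were unique in the genome, against 99.6% in windows of other chr9 genes, and 121 of 132 members had at least 90%. The 11 members below 90% had 0.121 (0.0887 to 0.161) in +RV and 0.155 (0.0622 to 0.319) in −RV, and the 121 others 0.187 (0.173 to 0.202) in +RV and 0.254 (0.206 to 0.309) in −RV. With only the 121 members, other chr9 promoters were at 14.9 times the density of members in +RV and at 9.93 times in −RV. Fragments under 50 bp, 5.43% of nuclear fragments in +RV and 26.9% in −RV, are shorter than these words. How well such fragments can be placed was not measured.

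Around the TSS itself, members showed no pile-up like that of other genes. Fragment ends within 50 bp of a TSS were divided, per base, by those 1800 to 2000 bp from it. Over 277 member TSSs the ratio was 1.19 (0.985 to 1.42) in +RV, from 154 and 514 ends, and 1.29 (0.793 to 2.03) in −RV, from 26 and 80 ends. Over other chr9 genes it was 8.90 (8.81 to 8.99) in +RV and 8.34 (8.10 to 8.58) in −RV. Other chr9 genes with no peak in any bulk library had 3.06 (2.99 to 3.13) in +RV and 3.18 (2.96 to 3.42) in −RV. Both intervals for the members held 1, and both lay below those of the uncalled genes.

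Coding exons of the members had a higher density than their promoters in +RV. The exons outside promoter windows had 0.259 (0.233 to 0.287) in +RV and 0.231 (0.163 to 0.317) in −RV. Member promoters were at 0.695 times (0.611 to 0.792) the exon density in +RV and at 1.05 times (0.720 to 1.57) in −RV. The exons had a GC content of 41.8%, against a median of 35.3% in promoter windows, and 89.4% of their 50-base words were unique. The part of GC content in this difference was not tested.

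The clusters could be followed as blocks along the chromosome. As a whole, cluster 1 had 0.187 (0.182 to 0.193) in +RV and 0.212 (0.194 to 0.231) in −RV, and cluster 2 had 0.188 (0.183 to 0.192) in +RV and 0.203 (0.189 to 0.218) in −RV. The 1.5 Mb after cluster 1 had 0.984 in +RV and 0.920 in −RV. The flanks of cluster 2 had 0.425 before and 0.476 after it in +RV, and 0.387 and 0.427 in −RV. The 1.5 Mb before cluster 1 had 0.232 in +RV and 0.258 in −RV, with 2 and 2 peaks in +RV libraries and 3 and 3 in −RV libraries, so low density went on upstream of that cluster.

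**Figure D4:**
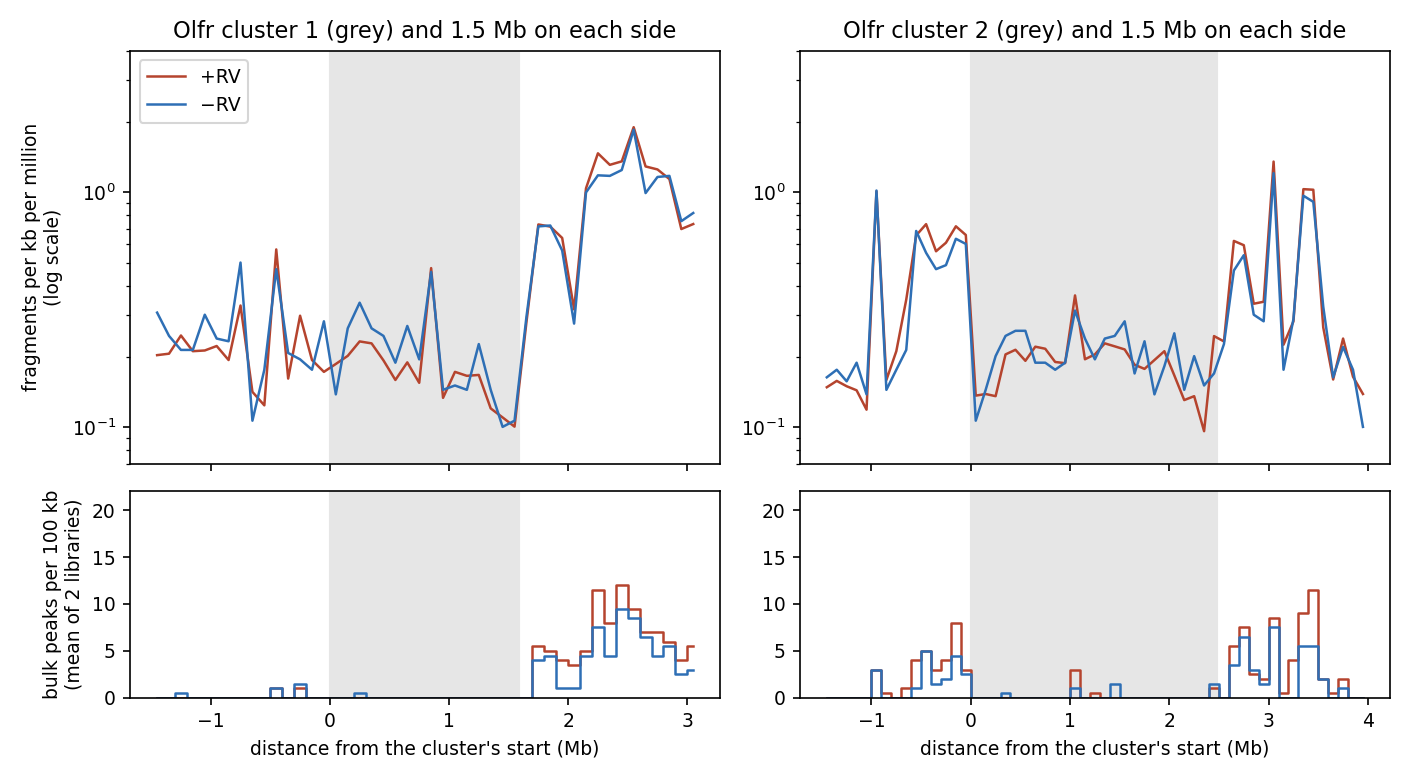
Single-cell fragment density in 100-kb bins (top, fragments per kb per 1000000 nuclear fragments, log scale) and bulk peaks per 100 kb (bottom, mean of 2 libraries) along the 2 Olfr clusters (grey) and 1.5 Mb on each side, red for +RV and blue for −RV. The highest +RV bin of cluster 1, at 0.476 in +RV and 0.458 in −RV, holds Zfp317, and that of cluster 2, at 0.364 and 0.314, holds the Vwa5a start; a further cluster 1 bin reaches 0.339 in −RV, at 0.232 in +RV.

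The 4 genes inside the clusters that are no olfactory receptors differed widely from each other. Zfp317 (19622102 to 19649731) had 390 fragments in +RV, a density of 9.18 (8.29 to 10.1), and 40 in −RV, 8.11 (5.79 to 11.04), but no bulk peak in any of the 4 libraries. It was the clearest case of a promoter with many single-cell fragments and no listed peak next to the members. Vwa5a, which encodes a von Willebrand factor A domain protein, had 130 fragments in +RV, 1.64 (1.37 to 1.95), and 13 in −RV, 1.41 (0.753 to 2.42), with a peak in all 4 libraries. AW551984 had 22 fragments in +RV, 0.347 (0.217 to 0.525), and 1 in −RV, 0.136 (0.00344 to 0.756). Tmem225, a transmembrane protein gene, had 1 fragment in +RV, 0.0608 (0.00154 to 0.339), and 0 in −RV. AW551984 and Tmem225 thus fell within the range of the members in +RV, and Zfp317 and Vwa5a did not.

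The next comparison asked whether reverse crosslinking changed the signal at member promoters. Over fragments of all lengths, the +RV density was 0.741 times (exact conditional interval 0.602 to 0.920) the −RV density. The same ratio was 0.804 (0.750 to 0.862) for Olfr genes on other chromosomes, 0.908 (0.857 to 0.962) for the whole clusters, 0.979 (0.966 to 0.992) for intergenic tiles and 1.10 (1.08 to 1.123) for other chr9 promoters. The contrast between other chr9 promoters and members was 1.49 times (1.21 to 1.83, counting error only) as large in +RV as in −RV. Each condition is 1 pooled set, so a difference between sets cannot be told apart from one between conditions.

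The ratio at members differed between length classes, and so did the length mix of the sets, so the ratio over all lengths is not placed in 1 class by the values here. Fragments under 50 bp made up 5.43% of nuclear fragments in +RV and 26.9% in −RV, and fragments over 100 bp 35.6% in +RV and 10.6% in −RV. Scaled to the fragments of that class, member promoters had 0.0800 in +RV (16 fragments) and 0.287 in −RV (33 fragments), a ratio of 0.279 (0.143 to 0.521). Among fragments of 50 to 100 bp the ratio was 0.926 (0.715 to 1.22), with 496 fragments in +RV and 66 in −RV. Among fragments over 100 bp it was 1.05 (0.439 to 3.27), with 151 in +RV and 5 in −RV. Both of these intervals held 1. Other chr9 promoters went the opposite way, with ratios of 1.503 under 50 bp, 0.944 from 50 to 100 bp and 0.831 over 100 bp, and Olfr genes on other chromosomes gave 0.563, 0.921 and 0.980. Reads had been cut to fixed lengths before mapping, and the parts of read length and of uniqueness in these classes were not tested. Among barcodes with at least 1000 nuclear fragments the ratio over all lengths was 0.958 (0.521 to 1.96).

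**Figure D5:**
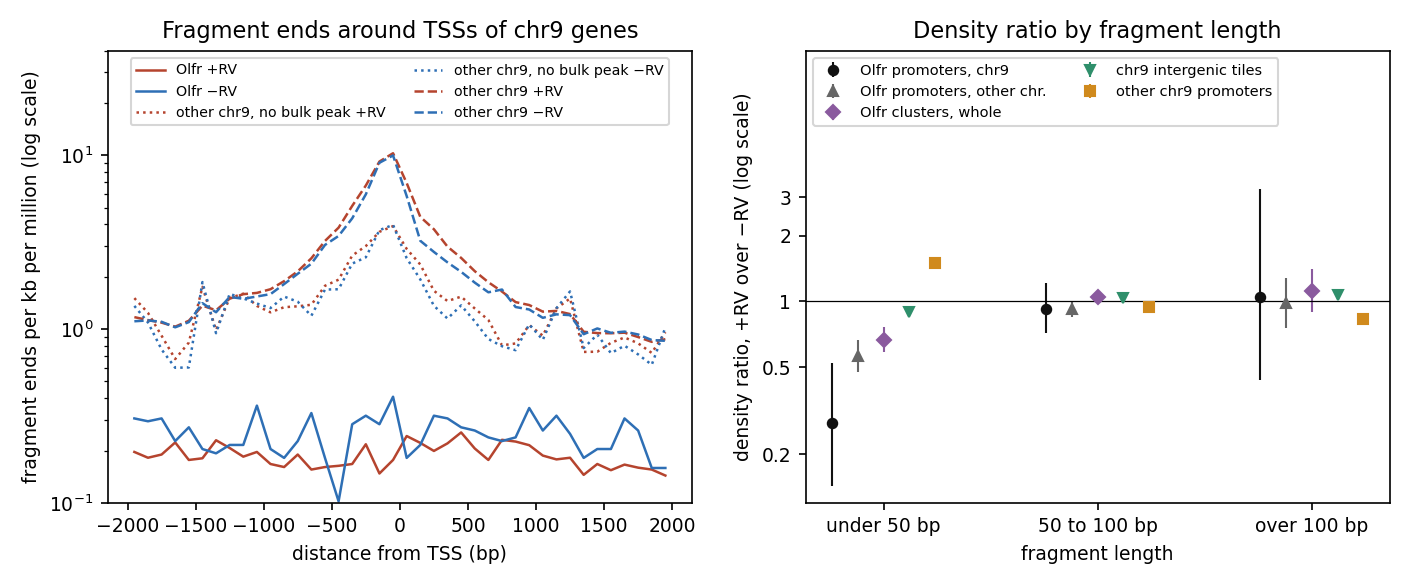
Left, fragment ends per kb per 1000000 (log scale) in 100-bp bins by distance from the TSS for chr9 Olfr genes (solid), other chr9 genes with no bulk peak (dotted) and all other chr9 genes (dashed), red for +RV and blue for −RV. Right, density ratio of +RV over −RV (log scale) by fragment length with 95% exact intervals; for chr9 Olfr promoters (black circles) it is 0.279 under 50 bp, 0.926 from 50 to 100 bp and 1.05 over 100 bp.

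Long fragments were scarce at members and in their clusters as a whole. Fragments longer than the DNA of a nucleosome core particle made up 8.90% (exact binomial interval 6.84 to 11.3) of fragments in member windows in +RV, against 28.7% (28.4 to 28.9) at other chr9 promoters and 17.04% (16.9 to 17.2) in intergenic tiles. In −RV the shares were 1.92% (0.234 to 6.77) in member windows, from 2 of 104 fragments, 4.36% at other chr9 promoters and 1.74% in tiles. The whole clusters had 11.8% (11.2 to 12.5) in +RV and 1.27% (0.742 to 2.03) in −RV. In +RV the interval of the members lay below those of other promoters and tiles but overlapped that of the clusters. In −RV it held the values of all these groups.

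Fragments at members were spread over many barcodes. In +RV, 645 of 18620 barcodes (3.46%, exact binomial interval 3.21 to 3.74) had a fragment in a member window, where 648.5 were expected from the depth of each barcode and the pooled rate. In −RV, 100 of 2406 (4.16%, 3.39 to 5.03) did, with 101.5 expected. Barcodes with 2 or more numbered 17 in +RV, with 14.2 expected, and 4 in −RV, with 2.47 expected. The highest count in a barcode was 3 in +RV and 2 in −RV. Barcodes were also split into 4 bins by their share of fragments at promoters on other chromosomes. In +RV, from the lowest share to the highest, the bins had member densities of 0.197, 0.197, 0.196 and 0.13 (0.102 to 0.151). The share and the member density have the same total as denominator. In −RV the bins had 0.305, 0.239, 0.194 and 0.233, with intervals that overlapped. Barcodes with at least 1000 nuclear fragments had 0.164 (0.139 to 0.192) in +RV and 0.171 (0.0854 to 0.306) in −RV.

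Each barcode also carries a Tn5 index, and the same 20 indices occur in both sets. Over these 20 the density of the whole clusters was 0.189 ± 0.00974 in +RV and 0.203 ± 0.0309 in −RV (SD over indices), and it was lower in +RV for 14 of 20. The density of member promoters was 0.182 ± 0.0391 in +RV and 0.245 ± 0.145 in −RV, lower in +RV for 13 of 20. Indices of 1 pooled set are not replicates of a condition, so no test was made.

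Member promoters shared a composition that the rule did not use. Their windows had a median GC content of 35.3% (28.1 to 42.4), against 49.9% in other chr9 genes, and a median CpG ratio (observed over expected) of 0.103, against 0.398. The 103 other chr9 genes inside the members' GC range had a median density of 1.05 in +RV and 1.17 in −RV. Of these, 37 of 103 had a peak in all 4 libraries, beside 556 of all 1078 other chr9 genes. RefSeq's table gave 110 promoters for 109 of the 132 members, each with 250 bases before and 50 after the TSS. They held a median of 1 CG dinucleotide, against 17 in promoters of other chr9 genes and 7 over all 32851 promoters of the table. No CG at all was found in 39 of 110 (35.5%), against 5.43% of all promoters.

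Motif letters were searched on both strands of these promoters. The homeodomain core TAATTA was present in 28 of 110 member promoters (25.5%), against 5.29% of all promoters. The TATA box letters TATAAA were present in 49 (44.5%), against 13.6%. The O/E or Ebf letters TCCCNNGGG were present in 2 (1.82%), against 6.56%, and the ETS letters CCGGAAGT, a site of factors such as Ets1, in 0 of 110, against 3.89%. The first pair of motifs consists of A and T alone and the second pair mostly of G and C, so these shares move with base composition, and a match is a description of letters and not of binding.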

How the data were processed

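ATAC-Seq peaks and fragments from FFPE mouse spleen were analysed as deposited, on mm10. As deposited, each bulk library had its own peak list in the MACS2 narrowPeak layout, filtered for blacklisted regions. The authors' lists give each peak a fold over local background, −log10 p and q values and a score of 10 times the −log10 q. SEACR 1.3, Picard 1.119, SAMtools 1.15 and Bowtie2 2.4 appear without roles in the submitters' processing notes, while the study's methods name MACS2 peak calling and blacklist filtering in their section on single-cell data, so MACS2 is taken as the caller of the bulk lists from their layout and peak names. Single-cell fragments were deposited by the authors as coordinates with a barcode, in 1 pooled set per condition. The methods describe cutting reads to fixed lengths, mapping with BWA and removing duplicates, with barcodes selected on fragment number and on the share of reads at TSSs, so densities refer to selected barcodes. The condition of each set was read from its deposited name.

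Promoter windows from GENCODE vM21 (1000 bp before to 200 bp after each TSS, joined per gene) were crossed with peaks by at least 1 bp and with fragment midpoints. Densities exclude mitochondrial fragments. Peak counts per library were 47755 and 47864 in +RV and 32288 and 32736 in −RV. Bulk results were compared by exact permutation and sign-flip tests, and counts by exact Poisson, binomial and conditional intervals, which cover counting error only. Unique 50-base words were counted in the mm10 genome, and promoter sequences came from RefSeq (GRCm38.p6). The 10 highest members by +RV density, peaks called in all 4 libraries and listed genes were named by rule. Members and gene lists were chosen with earlier results of these data known. Python 3.11.15, NumPy 2.4.6, pandas 2.3.3, SciPy 1.17.1, numba 0.67.0 and matplotlib 3.10.9 were used, and the calculations were tested on simulated data. Alternatives changed the window, the TSSs, the peak threshold, the fragments and barcodes counted and the libraries included.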

Additional observations from a re-analysis of the deposited data

How the results depend on the processing

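The share of members with a promoter peak stayed at 0 in every library under all 13 alternatives, and the difference between members and other chr9 genes lay between −59.8 and −51.1 percentage points, or between −58.4 and −55.9 with each library left out in turn. For peaks per Mb in the clusters, +RV minus −RV, the 9 alternatives gave −0.37 to 0.37, as did leaving out each library, so no direction was held. The study's methods say that tagmented bulk nuclei were divided between the 2 treatments. Whether libraries of the same number share a tagmentation is not stated, and the main tests treated them as unpaired. The deviations of same-numbered libraries had a correlation of 0.016 over genes, which cannot settle the pairing. With the replicate block the difference in peaks per Mb was 0.

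The fold of other chr9 promoters over members moved with the window, the TSSs, the fragment length and the use of medians, and stayed above 1 in all 14 alternatives of each set. In +RV it was 31.3 with 250 bp before to 50 bp after the TSS, 8.43 with 2000 bp on each side, 29.9 with 1 TSS per gene, 10.3 as a ratio of medians, 9.80 for fragments of 50 to 100 bp and 31.3 above 100 bp. In −RV these settings gave 17.5, 5.85, 19.8 and 6.84, then 39.4 above 100 bp, and 14.2 for barcodes with at least 1000 fragments. Member density was 0.229 in +RV at 50 to 100 bp, 0.115 in +RV and 0.110 in −RV above 100 bp, and 0.164 in +RV and 0.171 in −RV for the deeper barcodes. The ratio of +RV over −RV at members was 0.926, 1.05 and 0.958 in these 3 settings.

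Other alternatives were chosen after seeing the data. With TSSs of protein-coding transcripts the fold was 22.3 in +RV and 14.9 in −RV, and with members and other genes held to 90% unique words it was 13.9 in +RV. Under 50 bp it was 40.1 in +RV and 7.44 in −RV, with a member density of 0.0800 in +RV and a ratio of 0.279. The causes were not tested. No member window overlapped another gene's window, so leaving such members out changed nothing. Depth limits the −RV set, in which 61 of 132 members had no fragment.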
